A study of Homo sapiens with 4 samples.

Results

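The genes described here are 48 genes of the extracellular matrix and basement membrane, taken by name as a list: laminin and collagen chains, matrix glycoproteins, proteoglycans, and the enzymes that modify or cross-link collagen. They were followed in HuCCT1, a human intrahepatic cholangiocarcinoma cell line, in a study of miR-376c and of GRB2, an adaptor that links the activated EGF receptor to RAS. Cells were transfected at 30 nM with Pre-miR-376c (a mimic of mature miR-376c), Pre-miR negative control, siGRB2 (an siRNA against GRB2) or siRNA negative control (AllStars, a non-silencing siRNA). After 24 h, every transfected culture, controls included, was given 5 ng/ml EGF in medium with 0.1% serum for 24 h, and total RNA of each was put on 1 single-colour human 44 K array. The labels call the siRNA siGRB2, and the methods of the study call it siGRB2-2. All 48 genes had a probe on the array, with 68 probes in all. Of the 48, 38 were measured, that is, had a probe well above background by the scanner software on all 4 arrays, against 13602 of 19483 named genes.

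A level is the log2 of a probe's processed intensity minus the 75th percentile of its array, averaged over the measured probes of a gene. Levels of different probes are on different scales, so a level is compared here only with the same gene's level on another array. Each transfection had 1 array, so no test and no SD between cultures can be given, and a difference between conditions cannot be told apart from a difference between single cultures, RNA preparations or labelling reactions. The scanner software's own error on a log2 difference was 0.20 to 0.22 for 24 of the 29 genes with 1 measured probe. It was larger for the dim COL4A1, COL5A1 and FN1 (0.23 to 0.38) and smaller for LOX and LOXL2 (0.06 to 0.08), whose probes had 10 spots each. In bulk RNA, fewer cells of a type and less RNA per cell cannot be told apart.

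The basement membrane is a thin sheet under epithelia, built on networks of laminin and type IV collagen that nidogens and heparan sulfate proteoglycans such as perlecan and agrin hold together. Epithelial cells grip it through hemidesmosomes, in which the transmembrane collagen XVII and integrin alpha6-beta4 take part, and type VII collagen anchors the sheet to the stroma below. Fibrillar collagens, decorin, lumican and fibrillin fill the stroma and come mainly from fibroblasts, and cholangiocarcinoma is known for a dense stroma of this kind. EGF signalling through GRB2, RAS and ERK is known to change which matrix genes epithelial cells transcribe.

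GRB2 itself, with 1 probe, had a level of 0.62 on the Pre-miR negative control array, 0.07 with Pre-miR-376c, -0.10 with siRNA negative control and -0.65 with siGRB2. Each treated array was below its own control by 0.55, and the siGRB2 array was the lowest of all, while the Pre-miR-376c array was above the siRNA negative control array by 0.17. The siRNA negative control array stood apart from the others over all probes: differences between it and another array had an SD of 0.54 to 0.58 (log2), against 0.31 to 0.36 for pairs without it. The main results with siGRB2 are therefore also given against the Pre-miR negative control. Of 8 biliary epithelium markers 8 were measured, with a summed level between 9.27 and 9.64 on all arrays. Of 8 fibroblast and stellate cell markers 2 were measured (ACTA2 and ZEB1), with a summed level between -2.37 and -1.79. A further 5 (PDGFRA, PDGFRB, THY1, FAP and TCF21) were above background on no array. Summed levels are to be compared only across arrays, not between lists. Markers of other cell types were measured too: 3 of 5 for leukocytes (PTPRC, CD68 and CD14), 2 of 5 for endothelium (VWF and CDH5) and 1 of 4 for hepatocytes (APOA1).

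The RNA that Pre-miR-376c mimics is miR-376c-3p, the arm to which the older name miR-376c refers, shown because it is the agent itself. It lies at chr14:101039732-101039752 (GRCh38.p14, plus strand, RefSeq) in a cluster with miR-376a, whose 3p arm is at chr14:101040118-101040138 on the same strand. Capitals mark the seed, bases 2 to 8 from the 5′ end, which pairs with target RNAs.
miR-376c-3p: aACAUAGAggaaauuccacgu
miR-376a-3p: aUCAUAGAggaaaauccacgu
The seeds of these neighbours are not the same, and among 2370 mature miRNA names in the RefSeq table no other shared the seed of miR-376c-3p.

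Against its own control, 2 of the 38 measured genes were at least 2-fold lower with Pre-miR-376c (COL1A1 and THBS1) and 0 were at least 2-fold higher. Over all 13602 measured genes, 1.14% were at least 2-fold apart in this comparison and 0.706% were at least 2-fold lower. With siGRB2 against the siRNA negative control, COL17A1 was at least 2-fold lower, where 2.44% of all genes were, and SDC4 was at least 2-fold higher, where 4.3% of all genes were. In both directions together these are 2 of 38 genes (5.26%), below the 6.74% of all genes. Against the Pre-miR negative control, 0 of 38 were at least 2-fold apart with siGRB2 (0.934% of all genes). Pre-miR-376c against the siRNA negative control, a comparison that shares this control array, had COL17A1 lower and SDC4 higher (4.57% of all genes). Between the negative controls themselves, SDC4 alone was at least 2-fold apart (5.7% of all genes).

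**Figure D1:**
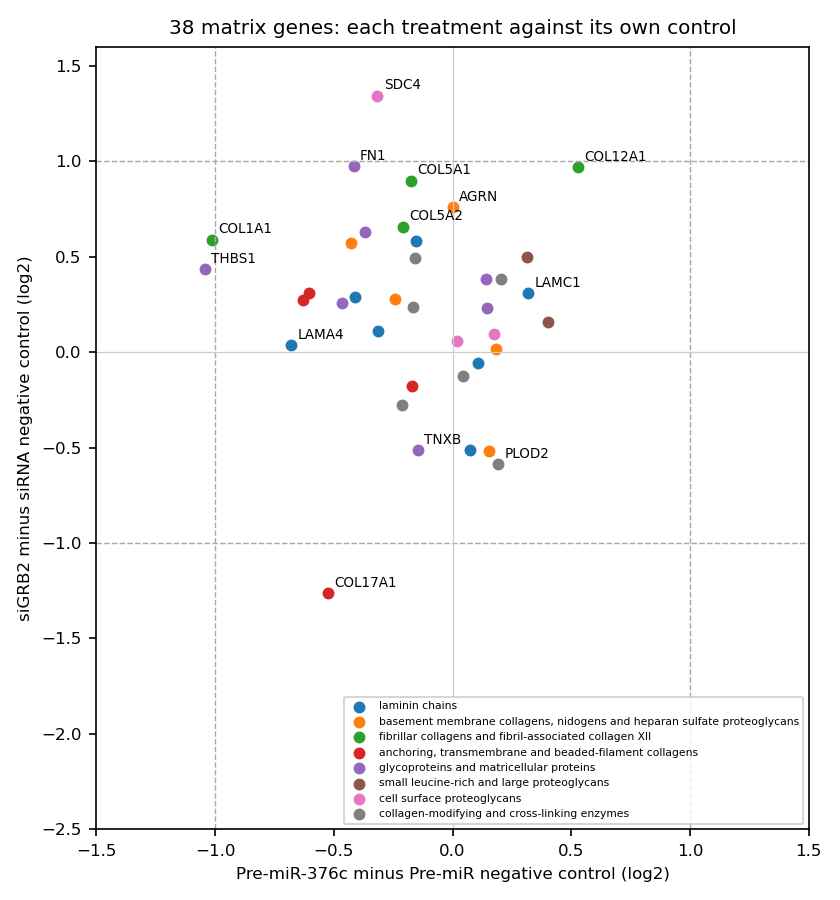
Each point is 1 of the 38 measured matrix genes, coloured by role, with the log2 difference of Pre-miR-376c from the Pre-miR negative control on the horizontal axis and that of siGRB2 from the siRNA negative control on the vertical axis; dashed lines mark 2-fold. COL1A1 and THBS1 lie past the line on the left, SDC4 above the upper line, COL17A1 below the lower line, and COL12A1 is the farthest to the upper right.

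Against the own control, the median of the matrix genes lay slightly below that of all genes with Pre-miR-376c and slightly above it with siGRB2, with many genes on the other side. Their median difference from the own control was -0.16 on the Pre-miR-376c array, where the median of all genes was -0.02, and 22 of 38 were below that median. With siGRB2 it was 0.28, where all genes had 0.11, and 24 of 38 were above that median. Against the Pre-miR negative control the siGRB2 median was 0.13 beside 0.03 for all genes. Against the siRNA negative control the Pre-miR-376c median was -0.024 beside 0.060 for all genes, and 21 of 38 were below the latter. That distance from all genes ran from -0.086 to 0.015 over 9 settings. When arrays were shifted to their median instead, the median of all genes became 0.09 in the first comparison and -0.17 in the second, and the medians of the matrix genes became -0.049 and -0.0060. Such a shift moves all genes of an array by the same amount. The distance of the matrix genes from all genes therefore had to stay at -0.14 and 0.16. The same holds for the percentile over detected probes, and closely for the deposited log2 values. Over 9 ways of scaling, background correction and probe averaging, these shifts included, the distance ran from -0.15 to -0.07 and from 0.16 to 0.22. The distance also depended on which probes were kept. With no detection filter it was -0.018 for Pre-miR-376c. With detection on at least 1 array it was 0.13 for siGRB2.

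Laminins are trimers of an alpha, a beta and a gamma chain, and all 7 listed chains were measured. LAMA3 and LAMB3 encode an alpha and a beta chain of epithelial laminin. LAMA3 had levels of 4.38 with Pre-miR negative control, 4.07 with Pre-miR-376c, 3.94 with siRNA negative control and 4.05 with siGRB2. LAMB3 had levels of 5.66, 5.73, 5.95 and 5.44 in the same order. The lowest LAMA3 and the highest LAMB3 value were both on the siRNA negative control array, so these chains did not follow each other across the arrays.

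LAMC1, the gamma chain shared by most laminins, was higher on both treated arrays than on either control, at 1.20 on the Pre-miR negative control array and 1.26 on the siRNA negative control array against 1.51 with Pre-miR-376c and 1.57 with siGRB2. Treated and control arrays did not overlap for LAMC1 in any of 10 alternative settings. Over all settings the gap between the nearest ran from 0.027 to 0.28, at its narrowest far below the scanner error. With 1 probe, the settings on probe averaging, detection and feature outliers return the main value, so several of the 10 could not differ. The difference from each own control was 0.32 and 0.31 against a scanner error of 0.20. The local background of the LAMC1 spot carried an outlier flag on 3 arrays. LAMA5, the alpha chain of the widespread epithelial laminin-511, was at 0.26, 0.11 and 0.13 on the Pre-miR negative control, Pre-miR-376c and siGRB2 arrays and at -0.45 on the siRNA negative control array alone. LAMB1 spanned 0.12 over the 4 arrays, the narrowest span of the 38 genes. LAMB2, the beta chain of many mature basement membranes, was lowest with Pre-miR-376c (0.56) and highest with siGRB2 (1.15), and lay at 0.97 and 0.86 on the control arrays.

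LAMA4, an alpha chain found in vessels and mesenchyme, was covered by 4 probes that disagreed. With siGRB2 against the siRNA negative control the probes gave log2 differences of 1.14, 0.43, -0.31 and -1.11, so the gene's mean of 0.04 hides both signs. With Pre-miR-376c against its own control all 4 probes were lower, by 0.51 to 0.91, and with siGRB2 against the Pre-miR negative control all 4 were lower as well, by 0.27 to 0.84. The disagreement therefore lay in the pairs that hold the siRNA negative control array.

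Of the other basement membrane genes, COL4A1 and COL4A2, the chains of the main type IV collagen, differed little. COL4A1 had levels of -5.33 with Pre-miR negative control, -5.57 with Pre-miR-376c, -5.50 with siRNA negative control and -5.22 with siGRB2, and COL4A2 had -0.93, -0.74, -0.74 and -0.72. The widest gap between 2 arrays was 0.354 for COL4A1, just above the scanner error of 0.347 for that pair, and 0.20 for COL4A2. Both genes start back to back and are read in opposite directions from the 126 bases between their starts, which are shown because 1 stretch of DNA serves both: chr13:110307158-110307283 (GRCh38.p14, RefSeq), written on the plus strand, on which COL4A2 is read. Capitals mark CCAAT (or ATTGG) and GGGCGG (or CCGCCC), the letters of a CCAAT box and a GC box on either strand.
COL4A1-COL4A2: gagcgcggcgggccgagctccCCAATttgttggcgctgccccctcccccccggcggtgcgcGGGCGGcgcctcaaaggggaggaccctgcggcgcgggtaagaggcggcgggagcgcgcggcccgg
There was 1 match of each, and of the 35116 windows of 250 bases before a start in the RefSeq data, 32.0% held the CCAAT letters and 42.6% the GC box letters. In the 44 such windows of 36 matrix genes these shares were 25.0% and 81.8%. The windows are longer than the 126 bases shown, so the shares do not apply to a stretch this short.

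COL18A1, whose product carries endostatin, was highest on the siRNA negative control array (2.96) and lay between 2.08 and 2.44 on the others. HSPG2, which encodes perlecan, had 4 probes that were all lowest on the siRNA negative control array, with a mean level of -2.85 there against -2.0 to -2.43 elsewhere. AGRN, which encodes agrin, was set apart by the siGRB2 array: its level was 2.56 there, and 1.90, 1.90 and 1.80 on the Pre-miR negative control, Pre-miR-376c and siRNA negative control arrays. This was 0.76 above the own control and 0.66 above each Pre-miR array, over 3 times the scanner error of 0.20. NID1 and NID2, the nidogens that bridge laminin and type IV collagen, were above background on no array.

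**Figure D2:**
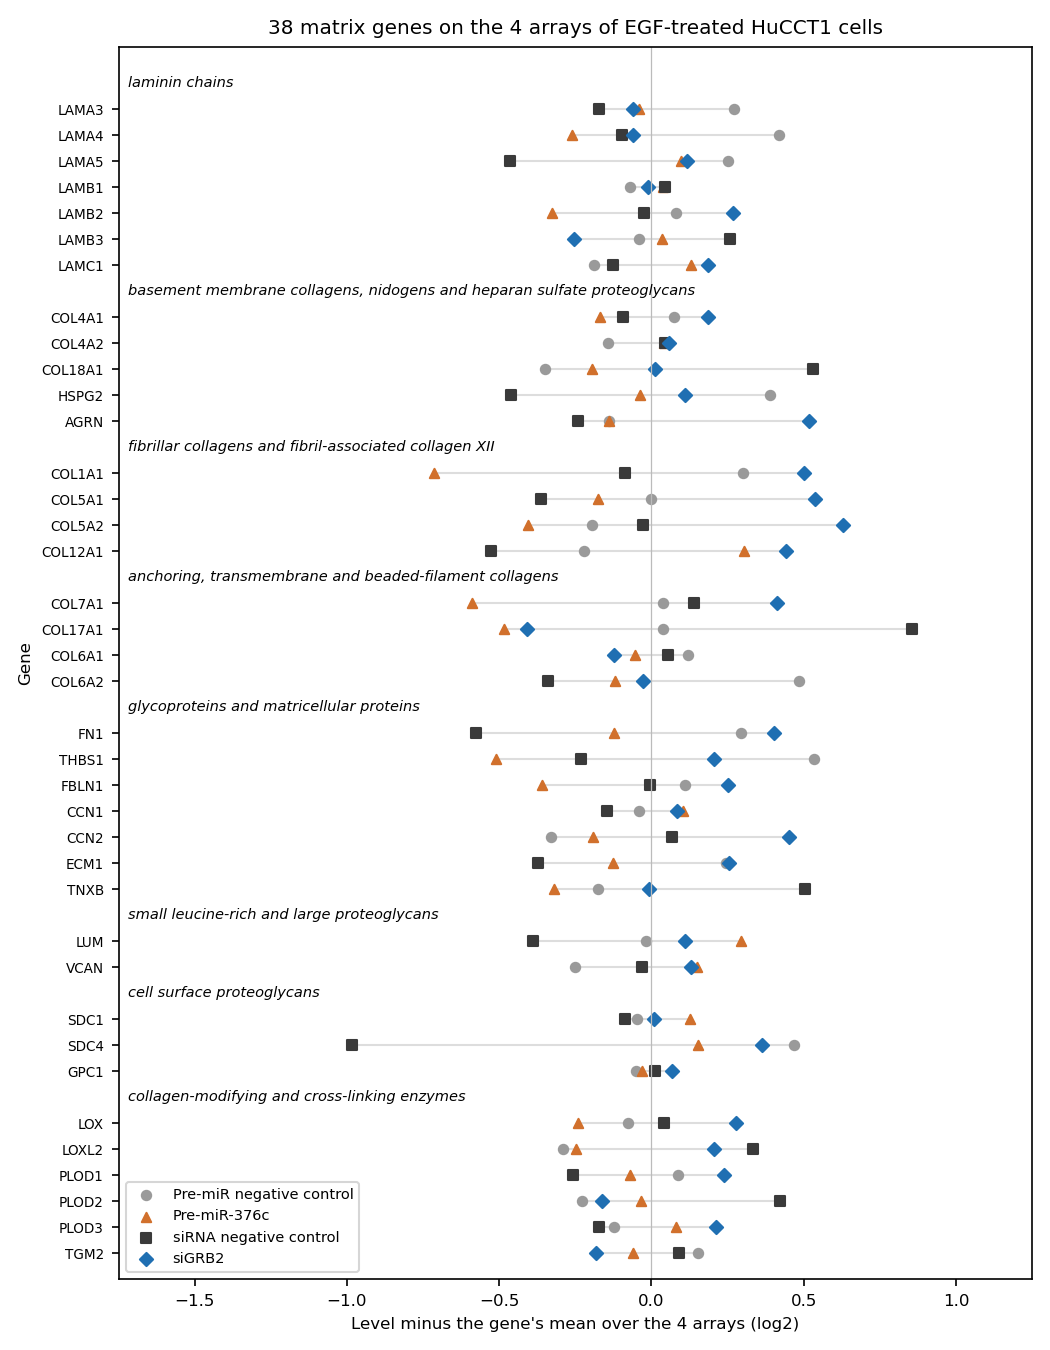
Each row is 1 of the 38 measured genes, grouped by role, and each marker is 1 array (key at the lower left), placed at its level minus the gene's mean over the 4 arrays, on the log2 scale. The siGRB2 diamonds lie on the right for the fibrillar collagens, the Pre-miR-376c triangles on the left for COL1A1, COL7A1 and THBS1, and the black squares of the siRNA negative control far to the left for SDC4 and far to the right for COL17A1.

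Among the 38 genes, the widest differences between the treatments were those of 3 collagen chains. Of 13 listed chains 11 were measured, and 10 of the 11 were higher with siGRB2 than with Pre-miR-376c, as 58.9% of all genes were. Over 11 settings 7 to 10 were higher, since the small differences of COL4A2 (0.02), COL17A1 (0.08) and COL6A2 (0.09) turned below 0 under a median shift. In that direct comparison 3 of the 38 genes were at least 2-fold apart, all higher with siGRB2 (COL1A1, COL5A2 and COL7A1), where 0.956% of all genes were at least 2-fold apart and 0.662% were at least 2-fold higher. The siGRB2 array was the highest of the 4 for 18 of the 38 genes (47.4%), against 29.6% of all genes. The lowest share over the settings was 26.3%, under a median shift, beside 16.0% of all genes.

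COL1A1, the alpha-1 chain of type I collagen, had levels of -2.40 with Pre-miR negative control, -3.41 with Pre-miR-376c, -2.79 with siRNA negative control and -2.20 with siGRB2. Pre-miR-376c was the lowest array, 1.01 below its own control and 0.63 below the siRNA negative control, and siGRB2 was the highest, 1.22 above Pre-miR-376c. Over 10 alternative settings the last difference was 0.97 to 1.22. COL1A2, whose chain joins COL1A1 in type I collagen, and COL3A1 were above background on no array.

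COL5A1 and COL5A2, chains of the minor fibrillar collagen that starts fibril assembly, were both highest with siGRB2. COL5A2 had levels of -1.20 with Pre-miR negative control, -1.41 with Pre-miR-376c, -1.03 with siRNA negative control and -0.37 with siGRB2. COL5A1 had levels of -5.00, -5.17, -5.36 and -4.46 in the same order. For both genes the siGRB2 array was above both control arrays, by 0.66 and 0.83 for COL5A2 and by 0.90 and 0.54 for COL5A1, while the Pre-miR-376c array was 0.21 and 0.17 below its own control, within about 1 scanner error. COL5A1 rests on 1 of its 2 probes, since the other was above background on no array.

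COL7A1, the chain of the anchoring fibrils, had levels of -0.10 with Pre-miR negative control, -0.73 with Pre-miR-376c, -0.0014 with siRNA negative control and 0.27 with siGRB2. The control arrays lay within 0.10 of each other, with Pre-miR-376c below both by 0.63 and 0.73 and siGRB2 above both by 0.38 and 0.28. The siGRB2 array exceeded the Pre-miR-376c array by 1.0, and by 0.88 to 1.02 over the settings, so that 7 of 11 settings placed it past 2-fold. COL5A2 passed in 8 of 11 (0.91 to 1.03) and COL1A1 in 10 of 11. Each of these genes has 1 measured probe, so several settings return the main value and the counts hold repeats of 1 number.

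For COL12A1 and COL17A1, by contrast, both treatments lay on the same side of both controls. COL12A1 encodes collagen XII, which coats the surface of collagen fibrils, and its levels were -1.03 with Pre-miR negative control, -0.50 with Pre-miR-376c, -1.33 with siRNA negative control and -0.36 with siGRB2. Both treated arrays were above both controls with a gap of 0.53 between the nearest, and both probes gave this order. Against their own controls the probes differed by 0.81 and 0.24 with Pre-miR-376c and by 1.14 and 0.80 with siGRB2, which was above the Pre-miR negative control by 0.96 and 0.37, the larger value each time from the same probe. COL17A1 encodes the hemidesmosome collagen (BP180), and its levels were 1.45 with Pre-miR negative control, 0.92 with Pre-miR-376c, 2.26 with siRNA negative control and 1.0 with siGRB2. Both treated arrays were below both controls with a gap of 0.45. Its size depended on the control: siGRB2 was 1.26 below the siRNA negative control and 0.45 below the Pre-miR negative control, and the controls differed by 0.82 from each other. The gap was 0.48 to 0.81 for COL12A1 and 0.41 to 0.50 for COL17A1 over all settings. COL17A1 has 1 probe, so several settings return its main value. No setting used the dimmer COL12A1 probe alone, for which the gap was 0.24.

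A gap of at least 0.3 of this kind was met by COL12A1 alone among the 38 genes on the higher side (2.26% of all genes) and by COL17A1 alone on the lower side (1.81% of all genes), 2.63% of the 38 each time. Without that minimum, both treated arrays were above both controls for 8 genes (LAMC1, COL12A1, AGRN, LUM, VCAN, SDC1, PLOD3 and CCN1), 21.1% of the 38 beside 20.1% of all genes. AGRN was among them by a gap of only 0.0015, in 7 of 11 settings, and SDC1 by 0.058, in 9 of 11. Both treated arrays were below both controls for 3 genes (COL6A1, COL17A1 and TGM2), 7.89% of the 38 beside 13.6% of all genes. On the higher side the shares were thus close to those of all genes, and on the lower side the share without a minimum gap was below that of all genes. Against the Pre-miR negative control array alone, both treated arrays were lower for 10 of the 38 (26.3%, beside 31.7% of all genes) and higher for 15 (39.5%, beside 34.4%). The 250 bases before the starts of COL12A1 and COL17A1 are shown because these genes differed from the controls with both treatments, one upwards and the other downwards. They lie at chr6:75206054-75206303 and chr10:104085881-104086130 (GRCh38.p14, RefSeq), each written on the minus strand, on which the gene is read.
COL12A1: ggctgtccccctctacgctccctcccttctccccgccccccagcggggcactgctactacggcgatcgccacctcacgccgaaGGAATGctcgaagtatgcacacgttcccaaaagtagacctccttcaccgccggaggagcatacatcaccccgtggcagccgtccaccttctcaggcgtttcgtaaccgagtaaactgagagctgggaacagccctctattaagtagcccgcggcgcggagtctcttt
COL17A1: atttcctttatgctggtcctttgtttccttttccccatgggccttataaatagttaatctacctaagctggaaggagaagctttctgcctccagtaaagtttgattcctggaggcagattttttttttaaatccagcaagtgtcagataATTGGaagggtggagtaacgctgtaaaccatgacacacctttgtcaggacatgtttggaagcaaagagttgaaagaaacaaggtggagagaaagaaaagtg
In the first, capitals mark GGAATG, letters that TEAD factors are known to bind, and in the second ATTGG, the CCAAT letters on the other strand. On either strand, GGAATG (or CATTCC) was found in 11.9% of all such windows and in 13.6% of the 44 windows of 36 matrix genes in the table, and the AP-1 letters TGANTCA in 6.57% and 6.82%. Neither COL12A1 nor COL17A1 held the AP-1 letters in this window.

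**Figure D3:**
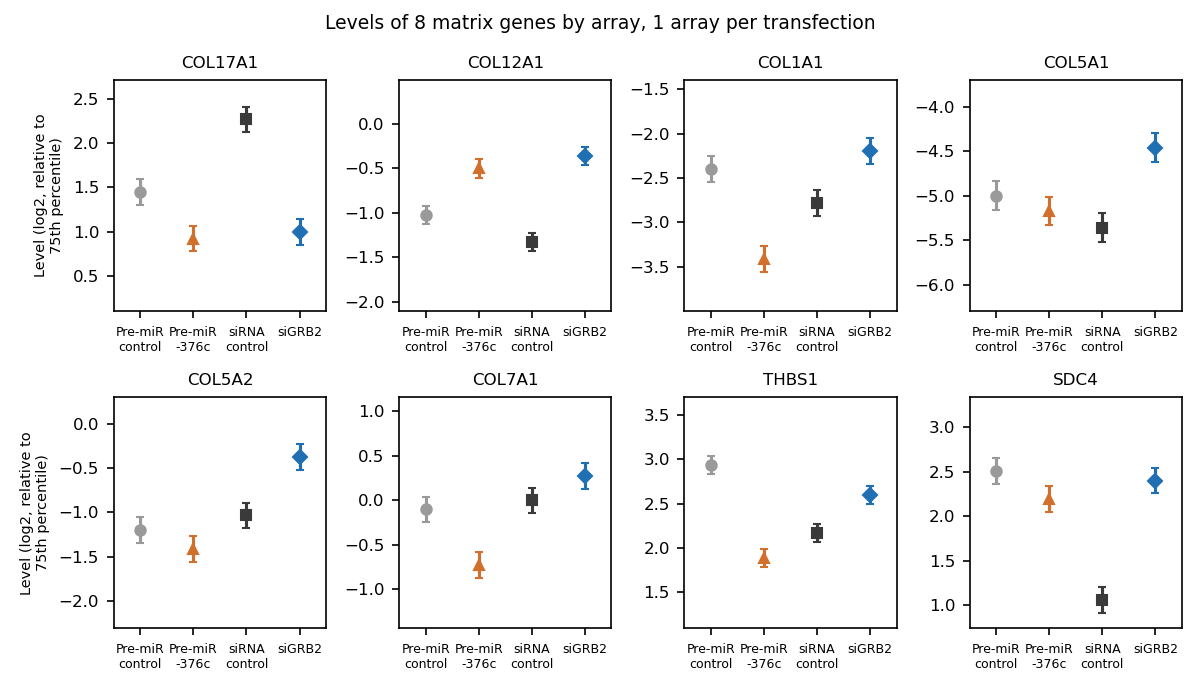
Log2 levels (scaled to the 75th percentile of each array) of 8 matrix genes on the 4 arrays, 1 point per array; bars are the scanner software's error of a level, not a spread between cultures, and every panel spans the same log2 range. Both treated arrays lie below both controls for COL17A1 and above them for COL12A1, COL1A1 and COL7A1 split the treatments, and SDC4 is low on the siRNA negative control array alone.

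The chains of collagen VI, a beaded-filament collagen near basement membranes, were not alike. COL6A1 was between 3.47 and 3.71 on all arrays. COL6A2 was highest on the Pre-miR negative control array (-0.01) and lay at -0.62, -0.84 and -0.53 with Pre-miR-376c, siRNA negative control and siGRB2. Its 2 probes differed from the Pre-miR negative control by -0.39 and -0.82 with Pre-miR-376c and by -0.47 and -0.56 with siGRB2. They split in sign for siGRB2 against the siRNA negative control (-0.05 and 0.67) and against Pre-miR-376c (-0.08 and 0.26).

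Among the adhesive glycoproteins, THBS1 differed most. THBS1 encodes thrombospondin-1, a matricellular protein that activates TGF-beta, and its levels were 2.93 with Pre-miR negative control, 1.89 with Pre-miR-376c, 2.17 with siRNA negative control and 2.60 with siGRB2. Pre-miR-376c was the lowest array, 1.04 below its own control but 0.28 below the siRNA negative control. Both probes had this order, with differences from the own control of -1.37 and -0.72. With siGRB2, THBS1 was 0.43 above its own control and 0.33 below the Pre-miR negative control, and thus between the controls.

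FN1, which encodes fibronectin, had levels of -4.38 with Pre-miR negative control, -4.79 with Pre-miR-376c, -5.25 with siRNA negative control and -4.27 with siGRB2. Its difference of 0.98 with siGRB2 was one of the largest of the list, yet against the Pre-miR negative control it was 0.11, since the siRNA negative control array held the lowest value. ECM1, a secreted glycoprotein, had the same shape, at -2.70 on the siRNA negative control array and -2.08 to -2.46 on the others. FBLN1, which encodes fibulin-1, was lowest with Pre-miR-376c (-0.06) and highest with siGRB2 (0.55), 0.61 apart, and its 3 probes all gave siGRB2 above Pre-miR-376c, by 0.47 to 0.72. Against the siRNA negative control its probes split, with siGRB2 differing by -0.42, 0.37 and 0.82.

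CCN1 and CCN2 encode matricellular proteins that integrins bind and that YAP with TEAD is known to switch on. CCN1 had levels of 6.07 with Pre-miR negative control, 6.22 with Pre-miR-376c, 5.97 with siRNA negative control and 6.2 with siGRB2, all within 0.25. CCN2 had levels of -3.97, -3.83, -3.57 and -3.19 in the same order, and siGRB2 was above the Pre-miR negative control by 0.78 and above the siRNA negative control by 0.38. The local background of the CCN1 spot carried an outlier flag on 2 arrays, as that of 1 LAMB3 and 1 THBS1 spot did on 1 array each. The windows before the starts of CCN2 (chr6:131951373-131951622, minus strand) and THBS1 (chr15:39580829-39581078, plus strand) are shown with GGAATG in capitals, since both genes are known YAP targets and CCN2 holds the letters 3 times and THBS1 1 time.
CCN2: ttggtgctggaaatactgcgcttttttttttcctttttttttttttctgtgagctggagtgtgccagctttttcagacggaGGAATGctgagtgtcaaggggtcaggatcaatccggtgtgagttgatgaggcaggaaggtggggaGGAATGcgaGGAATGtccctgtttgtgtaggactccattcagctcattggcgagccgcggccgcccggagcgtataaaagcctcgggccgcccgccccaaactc
THBS1: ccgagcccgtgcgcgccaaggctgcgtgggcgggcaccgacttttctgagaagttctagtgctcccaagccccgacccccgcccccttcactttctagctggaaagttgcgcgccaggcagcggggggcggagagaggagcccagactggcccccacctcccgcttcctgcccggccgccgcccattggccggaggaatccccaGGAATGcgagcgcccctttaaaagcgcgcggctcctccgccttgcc
COL12A1, CCN2 and THBS1 all hold these letters, and their orders over the arrays were not alike: COL12A1 was higher with both treatments, CCN2 was highest with siGRB2, and THBS1 was highest on the Pre-miR negative control array.

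TNXB, which encodes tenascin-X, rested on probes that disagreed most in the pairs that hold the siRNA negative control array. Of its 5 probes, A_24_P307135 had levels of -6.26 with Pre-miR negative control, -6.13 with Pre-miR-376c, -2.76 with siRNA negative control and -6.13 with siGRB2, and A_33_P3364571, above background on both control arrays only, had -6.87, -7.60, -3.35 and -6.81. For the second probe, siRNA negative control was at least 8.45-fold above siGRB2, setting siGRB2 at the lowest signal well above background on its array. The 3 other probes gave siGRB2 above the siRNA negative control, by 0.87, 0.24 and 0.21. Against the Pre-miR negative control, all 4 measured probes gave siGRB2 higher, by 0.12 to 0.28. The gene's mean difference of -0.51 with siGRB2 therefore comes from 1 probe, and because TNXB has a near-identical copy in the pseudogene TNXA, which of these a probe reads is uncertain.

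**Figure D4:**
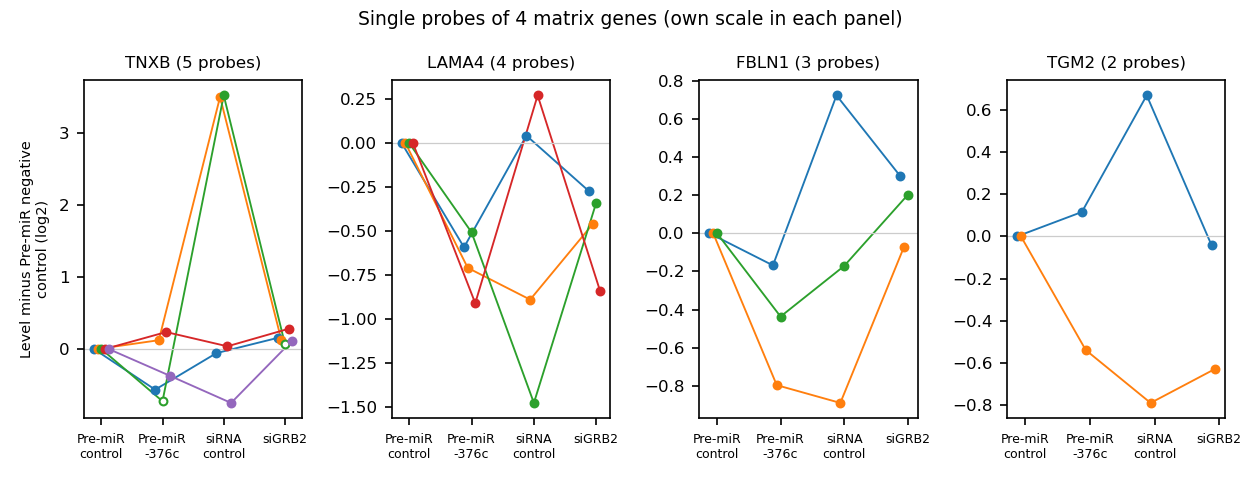
Levels of single probes of TNXB, LAMA4, FBLN1 and TGM2, each minus its own level on the Pre-miR negative control array (log2), over the 4 arrays; a line joins the values of 1 probe, open circles mark values not well above background, and each panel has its own scale. In every panel the probes fan out on the siRNA negative control array, where 2 of the 5 TNXB probes lie about 3.5 above their level on the Pre-miR negative control array.

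Of the remaining glycoproteins, FBN1 (fibrillin-1) was above background on no array. SPARC, a collagen-binding matricellular protein, was above background on the Pre-miR negative control array (-6.39) and the siGRB2 array (-5.89), and not on the Pre-miR-376c (-6.13) and siRNA negative control (-6.16) arrays. TNC, which encodes tenascin-C, was above background on the control arrays only, at -6.64 with Pre-miR negative control and -6.01 with siRNA negative control, against -6.57 with Pre-miR-376c and -6.25 with siGRB2. All these values lay at the edge of detection. The largest bound on a difference was for TNC, at least 1.32-fold higher with siRNA negative control than with Pre-miR-376c.

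Of the stromal proteoglycans, DCN, which encodes decorin, was above background on no array, and BGN, which encodes biglycan, on the Pre-miR negative control array alone (-6.49, against -6.69 to -6.98). LUM, which encodes lumican, was measured and was above both controls with both treatments, at -3.20 and -3.39 against -3.52 and -3.89. This order held in all 11 settings, of which several must repeat the main value for a gene with 1 probe. VCAN, the large hyaluronan-binding proteoglycan versican, was also higher on both treated arrays, at -1.78 and -1.80 against -2.18 and -1.96. The nearest treated and control arrays were 0.13 apart for LUM and 0.16 for VCAN, less than the scanner error.

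SDC4, the focal adhesion syndecan, showed the widest span of all 38 genes, 1.45, and the siRNA negative control array made it. Its levels were 2.51 with Pre-miR negative control, 2.19 with Pre-miR-376c, 1.06 with siRNA negative control and 2.40 with siGRB2. The difference of 1.35 with siGRB2 against its own control became -0.11 against the Pre-miR negative control. SDC1, the main epithelial syndecan, had levels of 2.53, 2.70, 2.49 and 2.59 in the same order, and GPC1, the glypican of many carcinomas, spanned 0.12. The 3 cell surface proteoglycans thus did not share the low value of SDC4.

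The measured levels of the collagen-modifying enzymes stayed within 2-fold in every pair of arrays, and P4HA3, a prolyl 4-hydroxylase subunit, was above background on no array. PLOD2, the lysyl hydroxylase of collagen telopeptides, had levels of 3.0 with Pre-miR negative control, 3.19 with Pre-miR-376c, 3.65 with siRNA negative control and 3.06 with siGRB2, the highest again on the siRNA negative control array. LOXL2, which oxidises lysines of collagen and elastin, had levels of -4.79, -4.75, -4.17 and -4.29 in the same order, so the siRNA arrays lay above the Pre-miR arrays. LOX was lowest with Pre-miR-376c (-0.38) and highest with siGRB2 (0.14). PLOD1 spanned 0.49, and its second probe, not well above background on the siRNA negative control array, was at least 2.16-fold higher on the Pre-miR negative control array. PLOD3 spanned 0.38, and PLOD3 was higher on both treated arrays, at 2.50 and 2.63 against 2.30 and 2.25. This order held in all 11 settings, several of which repeat the main value because PLOD3 has 1 probe.

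TGM2, which encodes the cross-linking enzyme transglutaminase 2, was lower on both treated arrays in the mean of its 2 probes, at 1.77 with Pre-miR-376c and 1.65 with siGRB2 against 1.98 on the Pre-miR negative control array and 1.92 on the siRNA negative control array. Neither probe had this order. The levels of A_24_P923251 were 0.05 with Pre-miR negative control, 0.17 with Pre-miR-376c, 0.72 with siRNA negative control and 0.01 with siGRB2, and those of A_32_P86763 were 3.92, 3.38, 3.13 and 3.29. The first probe was thus higher with Pre-miR-376c than on its own control array, and the second higher on both treated arrays than with siRNA negative control. Against the Pre-miR negative control both probes were lower with siGRB2, by 0.04 and 0.63.

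Over all 4 arrays the matrix genes spanned a median of 0.64, beside 0.53 for all genes, and 6 of 38 spanned at least 2-fold (15.8%, against 11.5% of all genes). Without the siRNA negative control array the median span was 0.38 beside 0.29, and 4 of 38 spanned at least 2-fold (10.5%, against 2.12% of all genes). These 4 were COL1A1, COL5A2, COL7A1 and THBS1, each lowest with Pre-miR-376c. The siRNA negative control array was the lowest for 15 genes (39.5%, beside 43.3% of all genes) and the Pre-miR-376c array for 11 (28.9%, beside 20.9%).

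Outside the 48, 8 lists of related genes (155 genes, 112 of them measured) held 0 genes that were at least 2-fold apart in the same direction against both controls, for Pre-miR-376c or for siGRB2. The genes named next were chosen after their values were seen. In the comparison of siGRB2 with Pre-miR-376c, 6 of the 112 (5.36%, against 0.956% of all genes) were at least 2-fold apart, all higher with siGRB2. LTBP2, a microfibril protein, had the widest difference of them (1.27, scanner error 0.24), beside 1.22 (0.21) for COL1A1, and EDIL3, an integrin-binding glycoprotein, had 1.19 (0.22). Most of the 6 were dim. With Pre-miR-376c they were at -5.56 (CCN5), -4.76 (LTBP2), -4.17 (EDIL3), -3.49 (GPC2), -3.44 (ADAMTS14) and -1.95 (PXDN). The share of all genes takes in genes of every brightness. Of the 11 measured genes on the list of other collagens 0 were that far apart. BMP1, the procollagen C-proteinase, was at -2.40 with Pre-miR negative control, -3.56 with Pre-miR-376c, -3.57 with siRNA negative control and -2.57 with siGRB2, so that Pre-miR-376c and the siRNA negative control were both low. ADAMTS14, a procollagen N-proteinase, was higher with siGRB2 than with Pre-miR-376c, by 1.13. In the collagen processing and cross-linking list 22 of 24 genes were measured, with a median difference between siGRB2 and Pre-miR-376c of 0.12, beside 0.06 for all genes, and 1 gene at least 2-fold apart.

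The matrix receptors (14 of 16 measured) had a median of -0.14 in the comparison of Pre-miR-376c with its control and of 0.20 in that of siGRB2 (0.14 against the Pre-miR negative control), beside -0.02, 0.11 and 0.03 for all genes. ITGA1, a collagen-binding integrin chain, was lower on both treated arrays, at -2.33 with Pre-miR-376c and -2.79 with siGRB2 against -1.91 and -1.68 on the Pre-miR and siRNA negative control arrays. FBLN5, an elastic fibre glycoprotein, was lower with both treatments by 0.66 to 1.11 against either control. GPC6, a glypican, was higher with both by 0.62 to 1.11. ANKRD1, one of 20 YAP and TEAD target genes on a list of which 17 were measured, had the shape of SDC4, at -0.50 on the siRNA negative control array and 1.11 to 1.20 on the others. The medians of that list against the own controls were -0.21 on the Pre-miR-376c array (all genes: -0.02) and 0.14 on the siGRB2 array (all genes: 0.11), with 0.11 for siGRB2 against the Pre-miR negative control (all genes: 0.03).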

How the data were processed

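Arrays of human 44 K design were read for the 4 transfections, 1 each. The authors deposited each array's spot intensity values, background-corrected, from Agilent Feature Extraction (10.7 in the submitters' processing notes, 10.7.3.1 in the file headers), and a table of log2 values made in GeneSpring GX by a shift to the 75th percentile. That table equalled the log2 processed intensity minus a constant per array within 0.01 for 99.9% or more of the probes. All arrays shared 1 slide and 1 scan.

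For the values given here, spots with a feature outlier flag (289 to 329 per array) were left out, the 75th percentile over non-control spots was subtracted from the log2 processed intensity, spots of a probe were averaged, and a probe counted as measured when well above background on more than 0.5 of its spots on all 4 arrays. The lowest signal well above background was 21.2 to 24.4, and no spot was saturated, so signal over background limits the dim genes. Probe accessions named 25422 of 34127 probes through RefSeq (GRCh38.p14), used for names and sequences only, since the array design refers to another build. Promoters were found for 36 of the 48 genes.

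With 1 array per condition no test was made. The members and lists were chosen with earlier results of these data known. Levels were to be given for members at least 2-fold apart against the own control, with both treated arrays at least 0.3 beyond both controls, or with probes over 1 apart in direction, and for a set of genes of known role. Other list genes were to be named if at least 2-fold apart against both controls. The values of 1 other gene are not reported here. The calling step was tested on simulated data in which every added change was larger than 2-fold, so that test could not check calls near the limit. Python (3.11.15), numpy (2.4.6), pandas (2.3.3), matplotlib (3.10.9), R (4.3.3) and limma (3.58.1) were used. The alternatives were a median shift, the percentile over detected probes, quantile normalization, normexp (offset 50), the deposited log2 values, the median or brightest probe, looser detection, outlier spots kept, other controls and other limits.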

Additional observations from a re-analysis of the deposited data

How the results depend on the processing

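No paired analysis was possible because there was a single array of every transfection. Every statement is about 4 arrays, and signal over background limits COL4A1, FN1, COL5A1, LOXL2 and the genes at the edge of detection. Of 120 recomputed values 86 moved by no more than their limit (a factor of 1.5 for counts, 0.1 for medians, the scanner error for single genes), 31 moved further and 3 changed sign, and the cause was not tested. Some of the 86 could not move, since for a gene with 1 probe several settings return the main value. A count was compared by its size only, so it could stay the same with other genes. The 2 genes at least 2-fold apart with Pre-miR-376c became 0 with a median shift, normexp, the mean of both controls or a 3-fold limit, 1 with quantile normalization, the deposited log2 values or the brightest probe, and 5 with a 1.5-fold limit. Against the other negative control there were again 2, but these were COL17A1 (lower) and SDC4 (higher). Neither COL1A1 (-0.63) nor THBS1 (-0.28) was 2-fold apart there. The 2 with siGRB2 became 0 against the other negative control, against the mean of both or with a 3-fold limit, 4 with the percentile over detected probes or the brightest probe, and 10 with a 1.5-fold limit. Genes lower on both treated arrays numbered 5 instead of 3 with a median shift and 1 with a gap of at least 0.3, and genes higher on both 4 instead of 8 and 1. Left without the siRNA negative control array, an alternative added after seeing the data, they numbered 10 and 15 of 38, beside 31.7% and 34.4% of all genes. The median difference of -0.16 with Pre-miR-376c became -0.049 with a median shift, -0.043 with normexp, 0.011 with no detection filter and -0.024 against the other negative control. For siGRB2 the median of 0.28 became -0.0060 with a median shift and 0.13 against the other negative control. SDC4, 1.35 above its own control with siGRB2, was -0.11 against the other.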
